A study of Mus musculus with 6 samples.

Results

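The genes described here encode 10 secreted inflammatory factors, *Ccl2*, *Ccl5*, *Ccl7*, *Cxcl1*, *Cxcl5*, *Cxcl10*, *Cxcl12*, *Cx3cl1*, *Il6* and *Csf1*, found by their GENCODE symbols among the 54331 genes listed. All 10 were present, and their levels were compared between reprogramming cells with and without active AKT. The cells were mouse embryonic fibroblasts (MEFs) from pooled male E13.5 embryos that carried an Oct4-EGFP transgene on a mixed background of C57BL/6, DBA/2 and ICR. Both groups had been infected with retroviruses for Oct4, Sox2 and Klf4 (OSK) and for AKT-MER, an AKT kinase joined to a mutated hormone-binding domain so that it works only in the presence of 4-hydroxytamoxifen (4OHT). Cells that received OSK and AKT-MER are abbreviated OSKA. From 3 days postinfection (dpi), 3 wells received 4OHT at 1 µM (OSKA + 4OHT) and 3 wells received ethanol (OSKA − 4OHT), and polyA RNA was sequenced at 10 dpi. The wells were plated from the same infected cells, so the p-values measure the spread between wells and not between MEF preparations. All wells carried AKT-MER, so an effect of 4OHT itself cannot be told apart here from that of active AKT. For cells without AKT-MER, the paper describes the effects of 4OHT as limited, from colony counts and from a microarray on an earlier day.

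Chemokines are small secreted proteins that draw leukocytes along a gradient by binding receptors coupled to G proteins. Fibroblasts make several of them when NF-kB is activated by cytokines or microbial products, and senescent fibroblasts release many of the same factors together with IL-6, proteases and growth factor binding proteins, the senescence-associated secretory phenotype (SASP). Another group, with *Cxcl10* as its best known member, is switched on by interferon through STAT and IRF factors. The members were sorted by these textbook roles into an interferon-linked class (*Cxcl10*, *Ccl5*), an NF-kB and senescence-linked class (*Ccl2*, *Ccl7*, *Cxcl1*, *Cxcl5*, *Il6*) and a remainder (*Cxcl12*, *Cx3cl1*, *Csf1*). The classes are not exclusive, since *Cxcl10* and *Ccl5* also respond to NF-kB and *Ccl2* also responds to interferon.

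Promoter sequence is given first. RefSeq windows on GRCm38.p6, from 250 bases before to 50 bases after the start of transcription, were at hand for 6 of the 10 members, and 4 motifs were searched in them on both strands. *Ccl2*, *Ccl5*, *Ccl7* and *Cxcl5* had no window, so their promoters were not searched. The 250 bases upstream of the start are printed 5′ to 3′ along the strand of the gene for *Cxcl10* (chr5:92348890-92349139, minus strand), *Cxcl1* (chr5:90890995-90891244, plus strand) and *Il6* (chr5:30012864-30013113, plus strand), chosen because they contrast an interferon-linked member with members of the NF-kB class. Capitals mark matches to the NF-kB consensus and to the core of the interferon-stimulated response element (ISRE), a pair of GAAA runs separated by any 2 bases.
Cxcl10: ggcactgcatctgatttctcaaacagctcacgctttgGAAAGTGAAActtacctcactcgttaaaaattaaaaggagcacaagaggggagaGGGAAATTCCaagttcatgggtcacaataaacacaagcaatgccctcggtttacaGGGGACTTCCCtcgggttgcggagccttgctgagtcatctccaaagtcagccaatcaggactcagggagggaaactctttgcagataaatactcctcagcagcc
Cxcl1: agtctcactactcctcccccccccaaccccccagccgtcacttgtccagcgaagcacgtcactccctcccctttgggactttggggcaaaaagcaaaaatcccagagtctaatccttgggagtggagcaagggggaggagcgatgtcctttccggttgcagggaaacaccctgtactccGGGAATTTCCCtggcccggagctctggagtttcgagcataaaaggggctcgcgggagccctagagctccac
Il6: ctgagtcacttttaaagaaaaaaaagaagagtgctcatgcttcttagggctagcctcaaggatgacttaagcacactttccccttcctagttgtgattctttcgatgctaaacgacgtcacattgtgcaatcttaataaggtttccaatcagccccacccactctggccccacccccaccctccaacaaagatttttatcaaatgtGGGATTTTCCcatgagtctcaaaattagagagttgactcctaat

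The *Cxcl10* window held the ISRE letters GAAAGTGAAA with their first base 213 bases before the start, and 3 matches to the NF-kB consensus at 159, 104 and 103 bases before it, the last pair overlapping. *Cxcl1* held the consensus once on each strand, overlapping at 71 and 70 bases before the start, and *Il6* held it 44 bases before the start. The AP-1 letters TGANTCA, left in lower case above, lay 74 bases before the start of *Cxcl10* and 249 bases before that of *Il6*. *Csf1* had a match to the NF-kB consensus on the opposite strand, beginning 154 bases before the start, and *Cxcl12* and *Cx3cl1* held none of the 4 motifs. No member's window held the interferon-gamma activated site TTCNNNGAA. Of all 32851 windows of the same length, 8.46% held the NF-kB consensus, 3.44% the ISRE core, 8.30% TTCNNNGAA and 7.81% TGANTCA. *Cxcl10* was the only one of the 6 with the ISRE core. A match describes the letters and not binding.

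Levels are given as TPM, a measure of transcript abundance that corrects for transcript length, so genes can be compared with each other. The 15382 genes that averaged 1 TPM or more were tested with limma on log2(TPM + 0.5), and those with an adjusted p under 0.05 (Benjamini-Hochberg) are said to have been called. All log2 fold changes below are on the log2(TPM + 0.5) scale, which understates changes of low genes. Each well adds up to 1000000 TPM. Because the commonest low value in a well corresponds to 1 read on a short transcript, relative depth could be read from it. With OSKA − 4OHT replicate 2 set to 1, the other OSKA − 4OHT wells lay at 0.482 and 0.629 and the OSKA + 4OHT wells between 0.815 and 0.977, so the controls included both shallowest wells. Over all genes tested, the log2 fold change had a median of 0.144, which became 0.0325 after scaling by trimmed means of log ratios and -0.0047 after quantile normalization.

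The fibroblast label held in every well, with *Col1a2* at 733 TPM or more and *Vim* at 2075 TPM or more. The summed level of 12 fibroblast markers was 10052 to 11664 TPM in OSKA − 4OHT and 6626 to 7912 TPM in OSKA + 4OHT. The list went both ways, with 2 of the 12 called higher and 4 called lower, against 3.52% and 1.97% of all genes, and the sum is set mainly by its most abundant genes. The lower calls were less stable in the 6 fits with 1 well left out. *Col1a2* kept its call in 0 of them, *Fn1* in 1, *Pdgfrb* in 3 and *S100a4* in 5. *Col3a1* and *Lum*, called higher, kept theirs in all 6. The summed level of 12 pluripotency markers was 29.5 to 47.2 and 145.7 to 152.9 TPM. In bulk RNA, a change in the share of cells that make a factor and a change in RNA per cell cannot be told apart.

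*Ccl2* and *Ccl7* rose, and no member was called lower. Of the 10 members, 9 passed the filter on low values and 2 were called higher in OSKA + 4OHT. Among all tested genes 5.49% were called, 3.52% (542 genes) higher and 1.97% (303 genes) lower. This excess of higher calls depended on the scaling, since trimmed means of log ratios gave 459 higher and 473 lower and quantile normalization 428 and 434. *Cxcl10* also had groups that did not overlap, which makes 3 members that were higher in every OSKA + 4OHT well than in any OSKA − 4OHT well, against 18.1% of all tested genes. Without adjustment, 3 members had a p under 0.05, against 21.3% of all tested genes. *Cxcl10* is counted in both. It averaged 0.662 TPM in OSKA − 4OHT and passed the filter on low values only through the OSKA + 4OHT wells, so it adds no support to either count. The median log2 fold change of the 9 was 0.12, close to that of all genes.

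*Ccl2* (ENSMUSG00000035385, chr11:82035571-82037453 on GRCm38, plus strand) encodes MCP-1, the main chemoattractant for monocytes and a standard SASP factor. It stood at 558, 555 and 493 TPM in the OSKA − 4OHT wells, given here and throughout in the order of replicates 1, 2 and 3, and at 1021, 1092 and 1137 TPM in the OSKA + 4OHT wells. The lowest treated well was well above the highest control well, and the wells within a group lay close together. The mean rose from 535 ± 36.5 to 1084 ± 58.4 TPM (SD, n = 3 wells each), a ratio of 2.03. The log2 fold change was 1.02 (SE 0.0978, 95% interval 0.78 to 1.25) with an adjusted p of 0.00517 by limma. Leaving out any well kept the call, with adjusted p from 0.0261 to 0.0420.

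*Ccl7* (ENSMUSG00000035373, chr11:82045712-82047525, plus strand) encodes MCP-3, a close relative of MCP-1 with an overlapping set of receptors, and starts 8258 bases beyond the end of *Ccl2*. Its levels were 331, 303 and 294 TPM in the OSKA − 4OHT wells and 528, 579 and 479.6 TPM in the OSKA + 4OHT wells. Again the groups did not overlap. The mean was 309 ± 19.4 TPM without and 529 ± 49.8 TPM with 4OHT (SD, n = 3 wells per group). The groups differed by a ratio of 1.71, and the log2 fold change was 0.77 (SE 0.114, 95% interval 0.50 to 1.05, adjusted p = 0.0179 by limma). This call was less stable than that of *Ccl2*: with 1 well left out it held in 2 of the 6 fits, without OSKA − 4OHT replicate 1 (adjusted p = 0.0492) and without OSKA + 4OHT replicate 3 (adjusted p = 0.0326). In the other 4 fits the log2 fold change was 0.70 to 0.77 and the adjusted p 0.0623 to 0.0771. The call was also lost when limma was fitted without a mean-variance trend (adjusted p = 0.0701).

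*Ccl2* and *Ccl7* dominated the chemokine RNA of these cells. Their levels ranked first and second among the members in both groups, and *Ccl2* lay at percentile 99.5 of all genes above 0. Together they made up 79.3%, 79.0% and 78.3% of the summed TPM of all 38 chemokine ligand genes in OSKA − 4OHT and 88.2%, 85.7% and 89.2% in OSKA + 4OHT. The share of *Ccl2* alone went from a mean of 49.98% to 58.96%, while that of *Ccl7* was 28.9% and 28.7%. Within a well, the ratio of *Ccl2* to *Ccl7* was 1.69, 1.83 and 1.68 in OSKA − 4OHT and 1.93, 1.89 and 2.37 in OSKA + 4OHT. The highest of these ratios came from OSKA + 4OHT replicate 3, where *Ccl2* was highest and *Ccl7* lowest of the treated wells. No other annotated gene had a transcript that matched those of the members at 90% identity or more over at least 50 bases, so reads of a near-identical copy were not found to be shared.

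**Figure D1:**
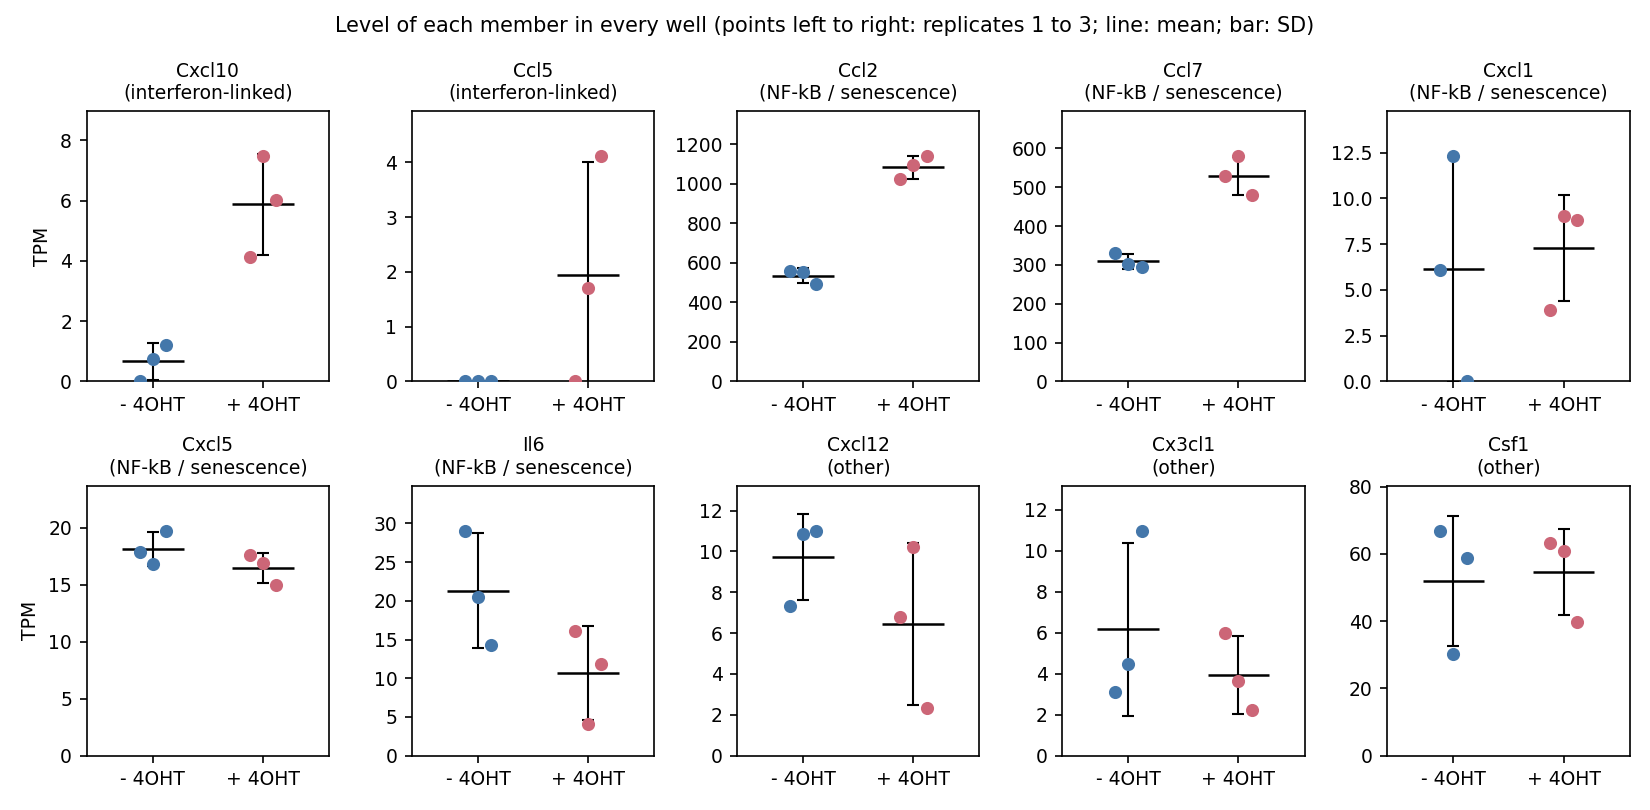
Level of each of the 10 members in TPM (vertical axes, each from 0) in the 3 OSKA − 4OHT wells (blue) and the 3 OSKA + 4OHT wells (red), with replicates 1 to 3 from left to right, the mean as a line and the SD as a bar. The treated wells of *Ccl2* (1021 to 1137 TPM), *Ccl7* (480 to 579 TPM) and *Cxcl10* (4.13 to 7.47 TPM) all lie above the control wells, and the groups of the other members overlap.

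The other 3 members of the NF-kB and senescence-linked class were not called. *Cxcl5* (chr5:90759360-90761624, plus strand), which encodes the neutrophil chemoattractant LIX, was the steadiest member. Its levels were 17.9, 16.8 and 19.7 TPM in OSKA − 4OHT and 17.6, 16.9 and 15.0 TPM in OSKA + 4OHT, with overlapping groups. The log2 fold change was -0.13 (adjusted p = 0.689 by limma), and its 95% interval of -0.54 to 0.28 leaves out a change of the size fitted for *Ccl2* in either direction.

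*Cxcl1* (chr5:90891241-90893115, plus strand), the neutrophil chemoattractant KC, lies in the same cluster as *Cxcl5*. It was at 6.11, 12.3 and 0 TPM in OSKA − 4OHT and at 3.92, 9.03 and 8.84 TPM in OSKA + 4OHT. OSKA − 4OHT replicate 3 was listed at 0 while replicate 2 was the highest of all wells, where the value stands for at most about 28.01 reads. The log2 fold change of 1.07 has an SE of 1.19 and a 95% interval of -1.78 to 3.93 (adjusted p = 0.642 by limma), and it turned to -0.33 without OSKA − 4OHT replicate 3. The spread between the control wells leaves the direction for *Cxcl1* undetermined.

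*Il6* (chr5:30013114-30019981, plus strand) encodes interleukin-6, the best known cytokine of the SASP. Its levels were 29.0, 20.5 and 14.3 TPM in OSKA − 4OHT and 16.1, 4.05 and 11.8 TPM in OSKA + 4OHT. The lowest control well was below the highest treated well, so the groups overlapped. The ratio of the mean in OSKA + 4OHT to that in OSKA − 4OHT was 0.501. With a log2 fold change of -1.10 (SE 0.526, 95% interval -2.37 to 0.17) and an adjusted p of 0.295 by limma, this difference did not pass the test. It stayed below 0 in all fits with 1 well left out, from -1.49 to -0.55.

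The interferon-linked members were low in both groups. *Cxcl10* (ENSMUSG00000034855, chr5:92346638-92348889, minus strand) encodes IP-10, which attracts activated T cells through CXCR3. It was at 0, 0.761 and 1.22 TPM in OSKA − 4OHT and at 4.13, 7.47 and 6.03 TPM in OSKA + 4OHT. Every treated well was above every control well, and it passed the filter on low values only through the treated wells. Its longest coding transcript sets the controls at no more than about 2.46 and 2.49 reads in replicates 2 and 3, and the treated wells at no more than about 12.3, 23.6 and 15.9 reads. The mean was 0.662 ± 0.618 and 5.88 ± 1.67 TPM (SD, n = 3 each), and the ratio of 8.88 rests on these few control reads. The log2 fold change, 2.60 (SE 0.573, 95% interval 1.22 to 3.98), was the largest of the members tested, with an adjusted p of 0.0558 by limma. With a larger pseudocount of 1 or 2, *Cxcl10* passed the test at adjusted p values of 0.0455 and 0.0410. It did not pass with a smaller pseudocount of 0.1 (log2 fold change 3.58, adjusted p = 0.107) or without the filter on low values (adjusted p = 0.0926). With 1 well left out the adjusted p was 0.0723 to 0.179.

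*Ccl5* (ENSMUSG00000035042, chr11:83525778-83530518, minus strand) encodes RANTES, a chemoattractant for T cells and monocytes. It was listed at 0 in all OSKA − 4OHT wells and at 0, 1.71 and 4.10 TPM in OSKA + 4OHT. These values equal 1 and 2 of the 1-read steps of their wells, and a difference was not detectable at this depth. Its mean was under the filter and it was not tested.

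The remaining members had other roles and no call. *Csf1* (chr3:107741048-107760469, minus strand), the growth factor on which macrophages depend, came next after *Ccl7* in both groups, at 66.9, 30.2 and 58.7 TPM in OSKA − 4OHT and 63.1, 60.8 and 39.8 TPM in OSKA + 4OHT. Each group held 1 well well below its other wells. The log2 fold change was 0.12 (95% interval -0.72 to 0.96, adjusted p = 0.877 by limma), and its sign changed without OSKA − 4OHT replicate 2 (-0.23) and after scaling by trimmed means of log ratios.

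*Cxcl12* (chr6:117168535-117181367, plus strand) encodes SDF-1, a homeostatic chemokine of stromal cells that retains blood stem cells and guides migrating germ cells. It was at 7.31, 10.9 and 11.02 TPM in OSKA − 4OHT and at 6.77, 10.2 and 2.35 TPM in OSKA + 4OHT. *Cx3cl1* (chr8:94772009-94782427, plus strand), or fractalkine, is made as a membrane-bound chemokine and shed by proteases. It was at 3.08, 4.46 and 10.98 TPM in OSKA − 4OHT and at 5.97, 3.66 and 2.22 TPM in OSKA + 4OHT. In both genes the groups overlapped. The log2 fold changes were -0.73 (95% interval -1.96 to 0.49, adjusted p = 0.475 by limma) for *Cxcl12* and -0.49 (95% interval -1.79 to 0.81, adjusted p = 0.638 by limma) for *Cx3cl1*. Single wells moved both values. *Cxcl12* went to -0.19 without OSKA + 4OHT replicate 3 and to -1.15 without OSKA + 4OHT replicate 2, and *Cx3cl1* to -0.012 without OSKA − 4OHT replicate 3 and to -0.85 without OSKA − 4OHT replicate 1.

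Across the members the order of the mean levels was the same at its ends and changed in between. In OSKA − 4OHT the order was *Ccl2*, *Ccl7*, *Csf1*, *Il6*, *Cxcl5*, *Cxcl12*, *Cx3cl1*, *Cxcl1*, *Cxcl10* and *Ccl5*. In OSKA + 4OHT it was *Ccl2*, *Ccl7*, *Csf1*, *Cxcl5*, *Il6*, *Cxcl1*, *Cxcl12*, *Cxcl10*, *Cx3cl1* and *Ccl5*. The wells of *Ccl2* and *Ccl7*, and those of *Ccl7* and *Csf1*, did not overlap in either group. The levels of *Il6* and *Cxcl5* overlapped in OSKA − 4OHT, as did those of *Cxcl12*, *Cx3cl1* and *Cxcl1* in both groups.

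**Figure D2:**
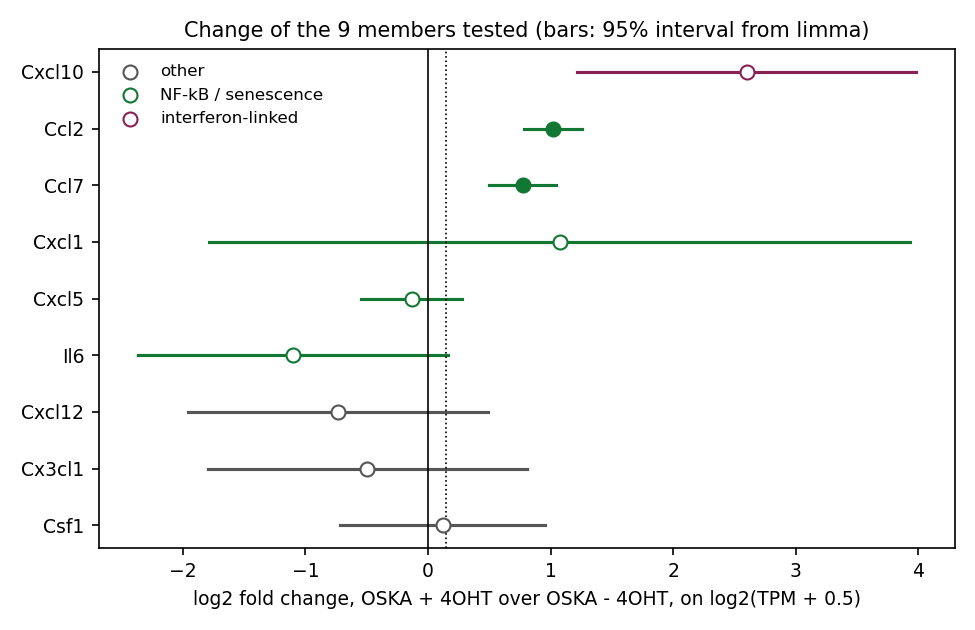
Log2 fold change of OSKA + 4OHT over OSKA − 4OHT on log2(TPM + 0.5) (horizontal axis) for the 9 members tested, by class, with 95% intervals from limma; filled points had an adjusted p under 0.05 and the dotted line is the median of all genes, 0.144. The intervals of *Ccl2*, *Ccl7* and *Cxcl10* lie above 0, and those of the other 6 members include 0.

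The rise of *Ccl2* and *Ccl7* was shared by 1 of their neighbours on chromosome 11. The genes there stand in the order *Ccl2*, *Ccl7*, *Ccl11*, *Ccl12*, *Ccl8* and *Ccl1*. *Ccl8* (chr11:82115185-82116799), which encodes MCP-2, was at 13.9, 15.1 and 13.3 TPM in OSKA − 4OHT and at 98.3, 147 and 94.4 TPM in OSKA + 4OHT. Its groups were far apart, with a log2 fold change of 2.94 and an adjusted p of 0.00347 by limma, and the call held in every fit with 1 well left out. The ratio of *Ccl2* to *Ccl8* within a well fell from a mean of 38.1 ± 1.87 to 9.96 ± 2.34 (SD, n = 3 each). Of the others, *Ccl11*, the eosinophil chemoattractant eotaxin, was at 7.22 TPM or less, *Ccl12*, or MCP-5, was at 8.56 TPM or less with 3 wells listed at 0, and *Ccl1* was listed at 0 in all wells.

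**Figure D3:**
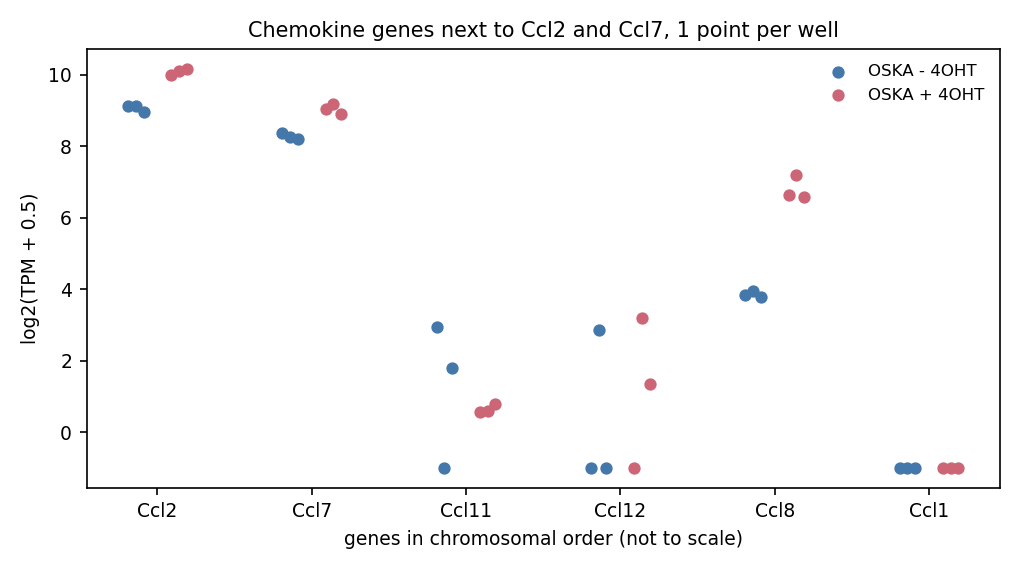
Level as log2(TPM + 0.5) (vertical axis) of the 6 chemokine genes of the cluster, in chromosomal order and not to scale, with 1 point per well in blue for OSKA − 4OHT and red for OSKA + 4OHT. *Ccl2*, *Ccl7* and *Ccl8* separate by group, and *Ccl11*, *Ccl12* and *Ccl1* are low or listed at 0.

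Of the 30 other chemokine ligand genes, 15 were tested, 1 was higher (*Ccl8*) and 2 were lower, against 3.52% and 1.97% of all genes, and 10 were listed at 0 in every well. *Cxcl14*, a chemokine of epithelia and stroma, was at 103, 88.4 and 97.6 TPM in OSKA − 4OHT and at 35.6, 31.2 and 28.1 TPM in OSKA + 4OHT (log2 fold change -1.60, adjusted p = 0.0052 by limma). *Cxcl16*, a transmembrane chemokine and scavenger receptor, was at 44.0, 42.4 and 28.2 TPM and at 7.34, 10.8 and 6.93 TPM (log2 fold change -2.13, adjusted p = 0.0115 by limma). Its call was lost without OSKA − 4OHT replicate 1 or 2 or OSKA + 4OHT replicate 1, at adjusted p of 0.0552, 0.0629 and 0.0692. *Cxcl9* and *Cxcl11*, which flank *Cxcl10* and share its receptor, were listed at 0 in all OSKA − 4OHT wells and at no more than 0.562 and 1.11 TPM in OSKA + 4OHT, too little to test.

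The receptors of the members were mostly low. Of 15 receptor genes 7 were tested, 1 was higher and none was lower, against 3.52% and 1.97% of all genes, and 3 had an unadjusted p under 0.05, against 21.3%. *Ackr3*, the atypical receptor that binds CXCL12 and removes it from the surroundings, was at 53.7, 56.0 and 56.3 TPM in OSKA − 4OHT and at 115, 107 and 94.9 TPM in OSKA + 4OHT (log2 fold change 0.92, adjusted p = 0.0163 by limma). Without OSKA − 4OHT replicate 2 or OSKA + 4OHT replicate 1 or 2 its adjusted p was 0.0506, 0.0564 and 0.0586. *Cxcr4*, the signalling receptor of CXCL12, was at 7.85, 10.3 and 17.5 TPM and at 17.6, 15.4 and 13.9 TPM (adjusted p = 0.471 by limma). *Ackr4*, a scavenger of other CC chemokines and not of the members, was on the list as an atypical receptor. It was at 0, 0.338 and 1.81 TPM in OSKA − 4OHT and at 5.54, 5.29 and 6.00 TPM in OSKA + 4OHT (adjusted p = 0.0655 by limma). It averaged 0.716 TPM in OSKA − 4OHT and passed the filter on low values only through the OSKA + 4OHT wells. Its unadjusted p of 0.0047 by limma is among the 3 counted above and adds no support to that count. *Ccr2*, the receptor of MCP-1, stayed at or under 0.697 TPM in every well, and *Cxcr3* was listed at 0 throughout.

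The receptors of IL-6 and CSF1 did not pass the test. *Il6ra* was at 10.6 to 13.3 TPM in OSKA − 4OHT and 5.85 to 9.33 TPM in OSKA + 4OHT, without overlap (log2 fold change -0.65, adjusted p = 0.192 by limma). *Il6st*, the signal-transducing chain gp130, scattered between wells of the same group, at 580.1, 90.02 and 309.7 TPM in OSKA − 4OHT and 93.2, 101 and 508 TPM in OSKA + 4OHT. *Csf1r* was at 0.935 to 4.29 TPM over all wells. *Il34*, the other ligand of CSF1R, was at 141.7, 98.3 and 75.2 TPM in OSKA − 4OHT and at 51.9, 61.5 and 73.1 TPM in OSKA + 4OHT, without overlap (adjusted p = 0.185 by limma).

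The pathways behind the classes differed in how many of their genes were called. Of 25 interferon target genes, all tested, 19 were higher and none was lower, against 3.52% and 1.97% of all genes, and their median log2 fold change was 2.52 against 0.144. *Isg15*, a ubiquitin-like modifier, was at 18.9, 33.9 and 18.1 TPM in OSKA − 4OHT and at 288, 394 and 272 TPM in OSKA + 4OHT (log2 fold change 3.76, adjusted p = 0.0037 by limma). With the pseudocount of 0.5, *Mx2* had the largest log2 fold change of the list, 3.90, from at most 0.817 TPM in OSKA − 4OHT to at least 9.28 TPM in OSKA + 4OHT. At a pseudocount of 1 the value of *Isg15* (3.73) was above that of *Mx2* (3.22), and at 0.1 it was below (3.785 against 5.19). Their order also changed when some single wells were left out. *Mx2* averaged 0.347 TPM in OSKA − 4OHT and passed the filter on low values only through the OSKA + 4OHT wells. Its call was lost without OSKA − 4OHT replicate 2 or OSKA + 4OHT replicate 1 or 2 (adjusted p 0.0506 to 0.0600). The count of 19 dropped when single wells were left out, to 9, 8 and 14 without OSKA − 4OHT replicates 1, 2 and 3 and to 8, 5 and 11 without OSKA + 4OHT replicates 1, 2 and 3. All 10 interferon genes looked at, *Ifnb1* and *Ifng* included, were listed at 0 in every well.

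Few NF-kB genes were called, as among all genes, of which 3.52% were called higher and 1.97% lower. Of 8 genes for NF-kB subunits and their kinases, none was called, with *Rela* at 97.4, 107 and 55.7 TPM in OSKA − 4OHT and at 42.0, 55.5 and 76.7 TPM in OSKA + 4OHT; at an unadjusted p under 0.05 there was 1. The list of 19 NF-kB target genes also held *Relb* and *Nfkb2* from those 8, so *Nfkb2* (unadjusted p = 0.0207 by limma) counts in both. Of the 19 NF-kB target genes, 18 were tested, none was higher and 1 was lower, and the median log2 fold change was -0.26. An unadjusted p under 0.05 was found for 5 of them, against 21.3% of all genes. Groups that did not overlap and were lower in OSKA + 4OHT were found for 6 of the 18, against 10% of all genes. The gene that fell was *Vcam1*, an adhesion molecule for leukocytes, at 315, 452 and 438 TPM in OSKA − 4OHT and 81.7, 86.3 and 88.3 TPM in OSKA + 4OHT (log2 fold change -2.21, adjusted p = 0.0037 by limma). *Nfkbia*, the feedback inhibitor IkB-alpha, was at 74.9, 73.5 and 66.6 TPM and at 36.4, 73.9 and 38.2 TPM, with an adjusted p of 0.292 by limma. *Tnf* was at 1.65 TPM or less and *Il1b* at 1.30 TPM or less in every well.

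Other SASP genes went both ways. Of 30 secreted factors of the SASP other than the members, 28 were tested, 5 were higher and 7 were lower, against 3.52% and 1.97% of all genes, with a median log2 fold change of -0.080. Without overlap, 6 were higher and 12 were lower, against 18.1% and 10% of all genes, and 16 had an unadjusted p under 0.05, against 21.3%. Among the higher ones were *Igfbp2* (3.35, adjusted p = 0.0046) and *Igfbp5* (2.19, adjusted p = 0.0037), which bind insulin-like growth factors, and *Vegfa*, the endothelial growth factor (1.43, adjusted p = 0.0154), all as log2 fold changes tested with limma. Among the lower ones was *Tnfrsf11b*, the decoy receptor osteoprotegerin, at 163, 168 and 138 TPM in OSKA − 4OHT and at 34.8, 35.5 and 28.2 TPM in OSKA + 4OHT (log2 fold change -2.24, adjusted p = 0.0035 by limma). *Vegfa* lost its call without OSKA − 4OHT replicate 2 or any OSKA + 4OHT well (adjusted p 0.0578 to 0.0745). Leaving out single wells gave 4, 3 or 2 higher genes, the lowest without OSKA + 4OHT replicate 1 or 2, and 3 to 6 lower, the lowest without OSKA + 4OHT replicate 1.

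Genes of senescent cell cycle arrest were mixed as well. Of 9 such genes, all tested, 1 was higher and 1 was lower, against 3.52% and 1.97% of all genes. Without overlap, 2 were higher and 1 was lower, against 18.1% and 10%, and 3 had an unadjusted p under 0.05, against 21.3%. *Cdkn1a*, which encodes p21, was at 235 to 280 TPM in OSKA − 4OHT and 244 to 324 TPM in OSKA + 4OHT (adjusted p = 0.566 by limma), and *Cdkn2a*, which encodes p16 and p19ARF, was at 71.0 to 103 TPM and 66.0 to 95.8 TPM (adjusted p = 0.646 by limma). *Cdkn2b*, which encodes p15, was lower by limma, at 47.3 to 58.7 TPM and 18.7 to 23.1 TPM (log2 fold change -1.23, adjusted p = 0.0159), and *Cdkn2c*, which encodes p18, was higher (0.81, adjusted p = 0.0394). The call of *Cdkn2c* was lost in every fit with 1 well left out (adjusted p 0.0672 to 0.105) and after either rescaling (adjusted p 0.0502 and 0.0564), and that of *Cdkn2b* without OSKA − 4OHT replicate 2 or 3 or OSKA + 4OHT replicate 1 or 2 (adjusted p 0.0516 to 0.0624). Of 12 genes for the IL-6 pathway, AP-1 and C/EBP, 2 were lower and none was higher, against 1.97% and 3.52% of all genes. Without overlap, 7 of the 12 were lower, against 10% of all genes, and 7 had an unadjusted p under 0.05, against 21.3%. The called genes were the kinase gene *Pim1* (log2 fold change -3.07, adjusted p = 0.0110 by limma) and *Myc* (-1.08, adjusted p = 0.0144 by limma), both targets of STAT3. *Pim1* lost its call without OSKA − 4OHT replicate 1 or 2 or OSKA + 4OHT replicate 2 or 3 (adjusted p 0.0525 to 0.0646), and *Myc* without OSKA + 4OHT replicate 1 (adjusted p = 0.0569).

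**Figure D4:**
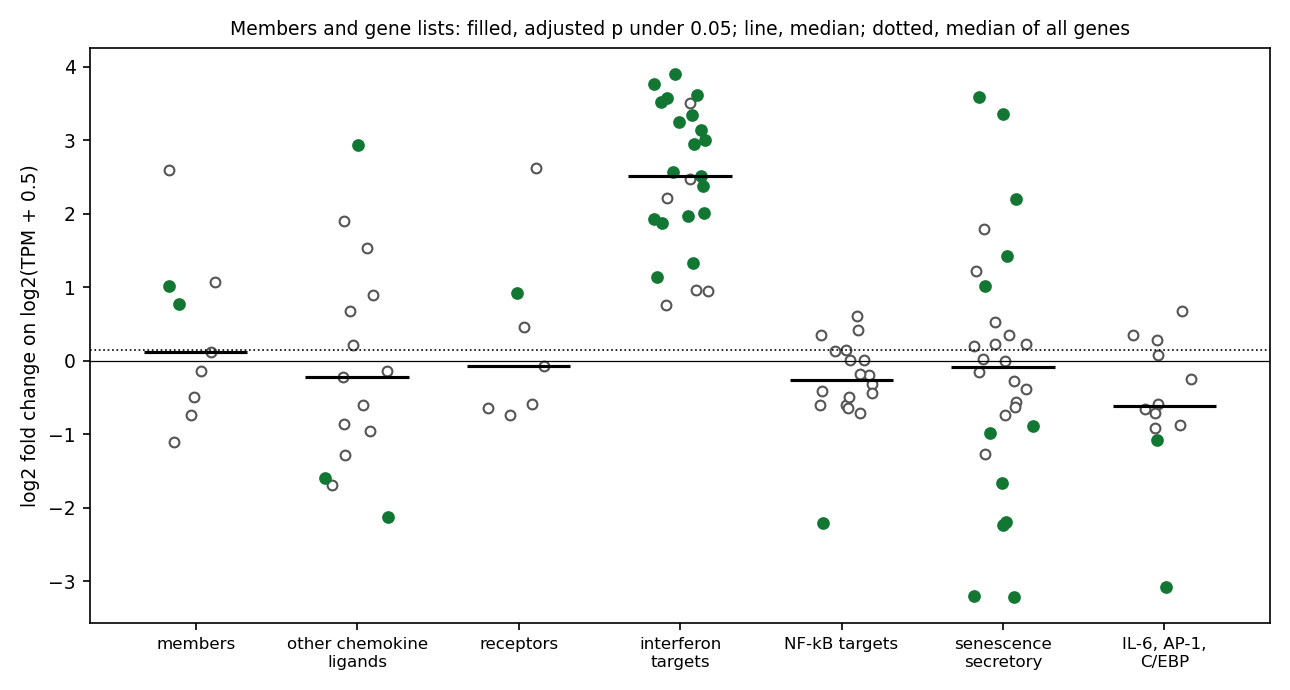
Log2 fold change on log2(TPM + 0.5) (vertical axis) of each tested gene in the members and in 6 gene lists, with filled points for an adjusted p under 0.05, a line at each list's median and a dotted line at the median of all genes. The interferon targets lie above 0 with a median of 2.52, and the medians of the NF-kB targets (-0.26) and of the SASP genes (-0.080) lie below it.

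Macrophages and endothelial cells also make several of these factors, so their markers were read in the same wells. Of 15 macrophage markers, all tested, none was higher and 1 was lower, *Lyz2*, which encodes lysozyme (log2 fold change -0.88, adjusted p = 0.0299 by limma). Over all genes 5.49% were called, so 1 of 15 is near the background. The summed level of the 15 was 186 to 225 TPM in OSKA − 4OHT and 135 to 149.8 TPM in OSKA + 4OHT. These sums did not overlap and went in the direction opposite to that of *Ccl2* and *Ccl7*. None of the 15 was at 0 in every well (*C1qa* was at 10.3 to 16.7 TPM). With 1 well left out, the *Lyz2* call held only without OSKA + 4OHT replicate 3, and the adjusted p was 0.0762 to 0.0987 in the other fits. Of 8 endothelial markers 4 were tested and none was called, and 2 had an unadjusted p under 0.05, against 21.3% of all genes. In 2 of the 4 the groups did not overlap, both higher, against 18.1%. All 4 had a log2 fold change above 0, with a median of 0.78, and the summed level of the 8 was 21.8 to 36.1 TPM in OSKA − 4OHT and 37.2 to 52.0 TPM in OSKA + 4OHT, without overlap and in the same direction as *Ccl2* and *Ccl7*. *Cdh5* was at 0.806 TPM or less, and *Kdr* at 0.567 TPM or less. Of 12 lymphocyte and neutrophil markers, 5 were listed at 0 in every well, *Cd3e* and *Mpo* included, and none of the 3 tested was called or had an unadjusted p under 0.05. Their summed level was 2.36 to 15.9 TPM and 10.1 to 19.7 TPM. The part of these cells in the member levels was not tested.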

How the data were processed

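RNA from 3 OSKA + 4OHT wells and 3 OSKA − 4OHT wells was compared at 10 dpi. The authors quantified polyA reads with Salmon and deposited TPM per gene and well; the annotation release is not given in the sources used here. They also deposited 4 columns of their own comparison, a log2 fold change, a log2 mean level, an F score and a p-value, which were not used. Symbols and positions came from GENCODE M21 on GRCm38. TPM keeps no counts, so limma 3.58.1 (R 4.3.3) with a mean-variance trend was fitted to log2(TPM + 0.5) over all genes that averaged 1 TPM or more, without a block. It was tested on simulated data beforehand. An exact permutation test of 3 wells against 3 cannot give a two-sided p under 0.1. Relative depth was read from the commonest value above 0 in each well, which equals 1 read at an effective length of 250 bases, and upper limits on reads use the longest coding transcript. Similar transcripts were sought with BLAST 2.17.0, and figures were drawn with matplotlib 3.10.9. Members, classes and gene lists were chosen with earlier results of these data known, so no list was tested as a set. All members, their receptors and the called genes of each list could be named; *Cxcl9*, *Cxcl11*, *Il34*, *Tnf*, *Il1b* and the neighbours of *Ccl2* were named after their values were seen. Alternatives were other pseudocounts, filters, scalings and variance models, the replicate number as a block, and leaving out each well. Results for some genes of the lists are not reported here.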

Additional observations from a re-analysis of the deposited data

How the results depend on the processing

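The fit was repeated under 16 alternatives. With the replicate block, calls over all genes dropped from 542 higher and 303 lower to 31 and 16, and of the members 0 were called higher; *Ccl2* (log2 fold change 1.02) and *Ccl7* (0.77) had adjusted p of 0.0640 and 0.0905 by limma. The block cannot alter a fold change in this balanced design. With the block there were 4 interferon targets higher, 0 other ligands lower, 0 receptors higher, and 1 SASP gene higher and 3 lower. Same-numbered wells deviated together at correlations of 0.0235, 0.0341 and 0.0837 across genes, and differently numbered wells at -0.062 to 0.0327. All these values are small, and whether the numbers pair the wells cannot be decided from them. Without the mean-variance trend 1 member was called, and *Ccl7* (0.77) had an adjusted p of 0.0701. *Cxcl10* passed at pseudocounts of 1 (2.10) and 2 (1.57) but not at 0.1 (3.58). With 2 as the pseudocount 2 receptors were higher. *Csf1* turned to -0.00094 with trimmed means scaling. With that scaling 2 NF-kB targets were lower. With 1 well left out, 1 to 2 members were called higher, and the log2 fold change ranged from 0.96 to 1.06 for *Ccl2*, 0.70 to 0.84 for *Ccl7*, 2.08 to 2.97 for *Cxcl10*, -0.33 to 2.01 for *Cxcl1*, -0.23 to 0.34 for *Csf1*, -1.15 to -0.19 for *Cxcl12* and -0.85 to -0.012 for *Cx3cl1*. The same fits gave 5 to 14 interferon targets higher, 2 to 4 SASP genes higher and 3 to 6 lower, 0 to 2 receptors higher and 1 to 2 other ligands lower; over all genes 137 to 357 were higher. Of 54 genes called outside the members, none changed direction in any setting that tested it. *Il6*, *Cxcl5*, *Cxcl12* and *Cx3cl1* stayed below 0 without a call, *Cx3cl1* by almost nothing in 1 fit. With a filter of 5 TPM *Cxcl10* was not tested. The cause of these changes was not tested.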

Other observations

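Among 25 secreted cytokines other than the members, 16 were tested, 2 were higher and none was lower by limma, against 3.52% and 1.97% of all genes. Without overlap, 3 were higher and 3 were lower, against 18.1% and 10%, and 4 had an unadjusted p under 0.05, against 21.3%. *Mif*, which encodes macrophage migration inhibitory factor, was at 295, 344 and 347 TPM in OSKA − 4OHT and at 886, 991 and 851 TPM in OSKA + 4OHT (log2 fold change 1.47, adjusted p = 0.0037), so that its level approached that of *Ccl2*. *Gdf15*, a stress-induced member of the TGF-beta family, was listed at 0, 0.657 and 0 TPM and at 8.95, 5.93 and 7.87 TPM (adjusted p = 0.0152). It averaged 0.219 TPM in OSKA − 4OHT and passed the filter on low values only through the OSKA + 4OHT wells. It is also counted among the SASP genes called higher. With 1 well left out it kept its call only without OSKA − 4OHT replicate 2, with an adjusted p of 0.0505 to 0.0692 in the other fits. *Il1rn*, the antagonist of the interleukin-1 receptor, was at 220, 190.4 and 272 TPM and at 65.6, 133 and 129 TPM, without overlap (adjusted p = 0.0963).

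OSKA + 4OHT replicate 3 stood apart for *Socs3*, the feedback inhibitor of gp130 signalling, at 522 TPM against 84.1 and 91.9 TPM in the other treated wells and 92.7 to 104 TPM in OSKA − 4OHT. In the same well *Il6st* was at 508 TPM and *Irf1* at 36.5 TPM, each the highest of the treated wells, while *Il6* was at 11.8 TPM, between the other treated wells. What sets this well apart was not tested.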
